A study of Mus musculus with 3 samples.

Results

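The 10 genes described here belong to goblet cells: Muc2, Fcgbp, Clca1, Zg16, Tff3, Spink4 and Klk1, whose products are secreted, and Agr2, Ern2 and Creb3l1, which work inside the cell. They were chosen by name, as 10 of 27998 genes counted, and all 10 were measured in every library. Their levels were compared between the cell types of the mouse small intestine and between 3 genotypes.

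Each genotype gave 1 single-cell library of sorted EpCAM+ epithelial cells, EpCAM being a surface protein of epithelium, and the study's methods name 1 mouse per group. All mice were C57BL/6, and the paper describes its Lef1fl/fl line as of mixed background and backcrossed to that strain. The mice received 2 doses of 2 mg tamoxifen at 7 to 8 weeks of age. The paper says that mice were taken once they met the criteria for euthanasia, and does not set the WT control apart. LApc mice carried the Lgr5-EGFP-IRES-CreERT2 allele with Apcfl/fl and were taken on day 29. LApcL mice carried Lef1fl/fl on top of the Cre allele and Apcfl/fl, and were taken on day 21. The WT control was also taken on day 21, and its labels do not say whether it carried the Cre allele. Lgr5 marks intestinal stem cells and drives the Cre, so a cell that does not descend from such a stem cell keeps its floxed alleles. Mouse, library and genotype cannot be told apart, and for LApc neither can the day.

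Goblet cells make the mucus that covers the epithelium. The gel-forming mucin MUC2 is folded in the endoplasmic reticulum (ER), joined into dimers, glycosylated in the Golgi, packed into granules and released together with smaller proteins that shape or accompany the gel. This load of secretory protein calls for a large ER, and goblet cells use ER proteins of their own to carry it. Paneth cells, which secrete antimicrobial peptides at the crypt base, come from the same secretory lineage.

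All 10 genes are protein coding, and their positions are given for GRCm38. Of these, 5 lie on chromosome 7, at chr7:141690340-141754693 (Muc2, plus strand), chr7:28071236-28120862 (Fcgbp, plus), chr7:127050156-127087328 (Zg16, minus), chr7:44225360-44229618 (Klk1, plus) and chr7:122169893-122186207 (Ern2, minus). The others lie at chr3:145003817-145032776 (Clca1, minus), chr17:31125306-31129646 (Tff3, minus), chr12:35992907-36004087 (Agr2, plus), chr4:40920052-40931395 (Spink4, plus) and chr2:91982328-92024502 (Creb3l1, minus).

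Promoter sequence from RefSeq (GRCm38.p6) was at hand for 4 of the 10 genes and is shown because these genes share one cell type and the motifs searched belong to factors of that cell type or of ER stress. Each sequence holds the 250 bases before the start that RefSeq annotates, 5′ to 3′ on the plus strand, at chr7:141690090-141690339 for Muc2, chr7:28070986-28071235 for Fcgbp, chr12:35992675-35992924 for Agr2 and chr7:44225110-44225359 for Klk1. For Agr2 this start lies inside the gene as placed above, so the last bases shown belong to it. Capitals mark CAGCTG, an E-box of the kind that basic helix-loop-helix factors such as ATOH1 bind, and CCAAT, the box bound by NF-Y that also forms part of the ER stress element, read on both strands, so that its reverse complement ATTGG is in capitals too.
Muc2 promoter: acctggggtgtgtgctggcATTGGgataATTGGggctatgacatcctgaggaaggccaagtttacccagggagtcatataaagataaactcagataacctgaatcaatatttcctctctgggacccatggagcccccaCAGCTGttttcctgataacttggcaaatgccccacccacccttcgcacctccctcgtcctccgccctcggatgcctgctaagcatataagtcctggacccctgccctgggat
Fcgbp promoter: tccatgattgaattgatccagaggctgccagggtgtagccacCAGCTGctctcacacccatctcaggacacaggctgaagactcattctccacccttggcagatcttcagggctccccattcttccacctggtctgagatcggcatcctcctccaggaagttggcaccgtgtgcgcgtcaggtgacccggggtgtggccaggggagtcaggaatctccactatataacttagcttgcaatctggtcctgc
Agr2 promoter: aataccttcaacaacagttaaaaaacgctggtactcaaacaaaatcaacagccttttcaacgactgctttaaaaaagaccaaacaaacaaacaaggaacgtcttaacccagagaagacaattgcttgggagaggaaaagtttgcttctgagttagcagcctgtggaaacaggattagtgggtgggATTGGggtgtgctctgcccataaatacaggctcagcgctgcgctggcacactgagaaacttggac
Klk1 promoter: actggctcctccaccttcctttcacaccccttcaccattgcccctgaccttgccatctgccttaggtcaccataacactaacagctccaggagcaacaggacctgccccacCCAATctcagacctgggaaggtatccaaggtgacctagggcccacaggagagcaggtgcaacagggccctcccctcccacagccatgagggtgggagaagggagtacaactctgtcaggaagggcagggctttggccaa
CAGCTG was present in the Muc2 and Fcgbp sequences, with its first base at -112 and -208 from that start, so in 2 of 4, against 13.0% of 32851 promoters of this length. CCAAT was present in 3 of 4, at -231 and -222 in Muc2, -65 in Agr2 and -139 in Klk1, against 33.8% of promoters. ACGTG, the core of motifs bound by XBP1 and the CREB3 family, was found in 0 of 4 and in 16.6% of promoters, read on both strands. These matches describe the letters of these windows only.

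The libraries held 140181087 (WT), 79696291 (LApc) and 191509615 (LApcL) unique molecular identifiers (UMIs), each a tag for 1 captured RNA molecule, and 10138, 9601 and 14394 cells were kept after filtering. The LApc library was the shallowest, with a median of 6133 UMIs per kept cell against 9711.5 in WT and 10140 in LApcL, and it lost 2342 barcodes to the limit on mitochondrial UMIs against 62 and 413. Between 214 and 318 barcodes were shared by each pair of libraries. Of the targeted genes, Lef1 stood at 21.0 UMIs per 1e6 UMIs (CPM) in the adenoma-enriched cells of LApc and 3.43 CPM in those of LApcL, and at 0, 1 and 9 UMIs in all the goblet-like cells of WT, LApc and LApcL. Goblet-like cells held 14.8, 14.5 and 18.0 CPM of Apc, but a tag at the 3′ end of a transcript says nothing of a deleted exon, so the genotypes are as labelled. Levels below are UMIs of a gene summed over the cells of a class, as CPM. A 3′ tag is counted once per molecule, so levels are compared between genes without division by length. With 1 library per genotype no difference can be tested. The 95% intervals given are exact and take in counting error only, since the spread from mouse to mouse was not measured.

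Cell classes were rebuilt by clustering in which none of the 10 genes took part, and named from markers that include none of them. In the goblet-like class the 10 goblet markers summed to 2690, 2553 and 2013 CPM in WT, LApc and LApcL. In enterocyte-like cells they reached 121, 77.9 and 75.7 CPM. The class was named from these same markers, so the sums are no check on its name. The goblet-like class held 2595 (25.6%), 1573 (16.4%) and 958 (6.66%) of the kept cells. Next to it stood a cluster that carried goblet markers together with cell-cycle markers (596, 147 and 155 cells), called cycling goblet-marker cells here. Immune markers summed to no more than 14.3 CPM in goblet-like cells. The 6 stromal markers summed to 0.393, 1.59 and 3.17 CPM in WT, LApc and LApcL, and of these Col1a1, Col1a2 and Dcn were at 0 in all 3 libraries. Other markers did differ. In goblet-like cells of WT, LApc and LApcL the Paneth markers summed to 19732, 11727 and 31088 CPM, the enterocyte markers to 2601, 2900 and 1090 CPM, the Wnt and crypt markers to 1211, 993 and 1712 CPM, the cell-cycle markers to 275, 254 and 425 CPM and the adenoma markers to 0.742, 11.48 and 174 CPM. Their part in the values below was not tested.

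The 10 genes made up 23.6% of all UMIs of goblet-like cells in WT, 31.9% in LApc and 17.1% in LApcL. By cell, the median share was 20.6%, 35.8% and 15.0%. The share was 8.79%, 5.38% and 6.43% in cycling goblet-marker cells, 1.90%, 2.41% and 1.63% in Paneth-like cells, and 3.14%, 1.75% and 0.911% in enteroendocrine-like cells, the hormone-secreting cells. It was under 1% in tuft-like, enterocyte-like and crypt cells (the Wnt-active and dividing cells shared by all libraries) and in adenoma-enriched cells. Goblet-like cells thus held 76.5%, 87.6% and 72.3% of each library's UMIs of these genes. Over all kept cells, of which the goblet-like share differed as given above, the 10 genes made up 5.84% of UMIs in WT, 4.77% in LApc and 1.06% in LApcL. Fewer goblet cells and less RNA of these genes per cell cannot be told apart in that last set of values, so the levels below are given within classes.

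**Figure D1:**
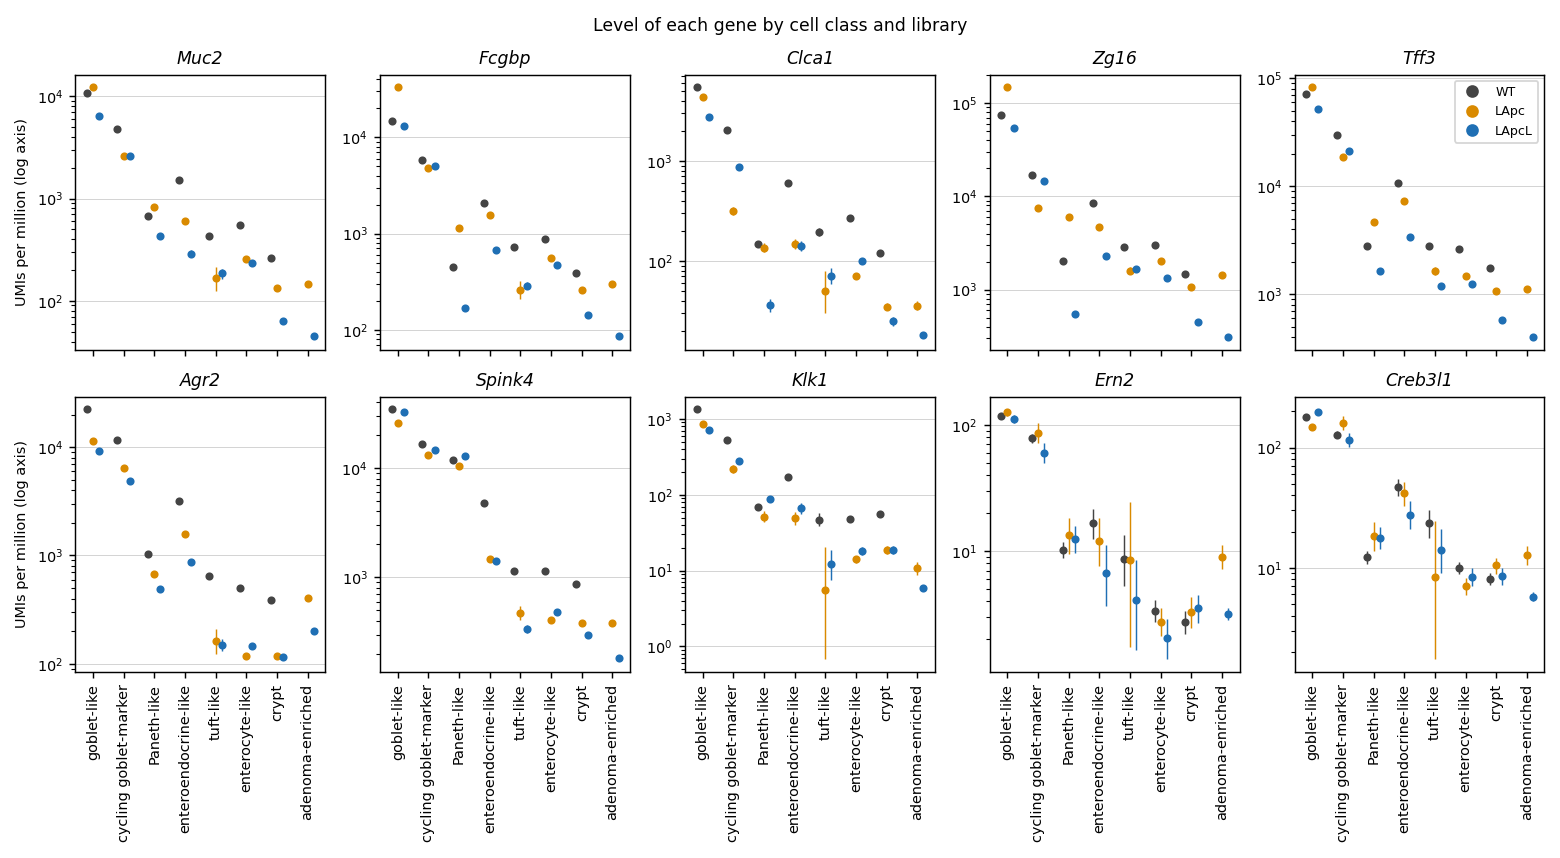
Level of each of the 10 genes (CPM, log axis) in every cell class, with 1 point per library. Goblet-like cells hold the highest level in 29 of 30 gene and library pairs, cycling goblet-marker cells follow, and Spink4 ranges from 10459 to 12900 CPM in Paneth-like cells. Bars are exact 95% counting intervals.

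Over the classes, goblet-like cells had the highest level in 29 of 30 pairs of gene and library. The exception was Creb3l1 in LApc, at 160 CPM in cycling goblet-marker cells and 149 CPM in goblet-like cells. Cycling goblet-marker cells came next for each gene by the mean over libraries. For Agr2 and Creb3l1 the ranges of these classes over the libraries overlapped. Within each library, though, Agr2 was higher in goblet-like cells (22442, 11443 and 9316.5 CPM in WT, LApc and LApcL) than in cycling ones (11567, 6407 and 4925 CPM). The order of Creb3l1 was not the same in each library. Enteroendocrine-like cells came after them for 8 of the 10 genes and Paneth-like cells for Spink4 and Ern2, but for 8 of the 10 genes, Ern2 with them, the range of that class overlapped that of the next, the exceptions being Spink4 and Creb3l1. For Clca1 and Zg16 the ranges of cycling and enteroendocrine-like cells overlapped. Spink4 in Paneth-like cells taken as a whole ranged from 10459 to 12900 CPM, with no overlap with the class above or below. In the part of them that a finer clustering also named Paneth, Spink4 stood at 11854, 12504 and 17757 CPM in WT, LApc and LApcL. That range overlaps the 13087 to 16566 CPM of cycling goblet-marker cells, so the lack of overlap depends on the pooled class.

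Muc2 encodes the gel-forming mucin of the intestine. Its level in goblet-like cells was 10692 CPM in WT, 12218 in LApc and 6386 CPM in LApcL. LApcL was the lowest, 1.91-fold below LApc (log2 ratio -0.94, -0.95 to -0.92) and 1.67-fold below WT, while LApc and WT differed by 0.19 on the log2 scale. In enterocyte-like cells Muc2 stood at 547, 254 and 236 CPM.

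Fcgbp encodes a large mucus protein that becomes linked to the MUC2 gel. Its level in goblet-like cells was 14786 CPM in WT, 33120 in LApc and 13247 CPM in LApcL. LApc stood apart from the other libraries, 2.24-fold above WT (1.16, 1.16 to 1.17) and 2.50-fold above LApcL. About 34.0% of the sequence words at the end of the Fcgbp transcripts (154 of 453 words of 50 bases in the last 500) also occur in 9530053A07Rik, a gene close to it in sequence, so reads could be split between them. 9530053A07Rik was counted at 5.59, 21.4 and 5.19 CPM in goblet-like cells, low but highest in the same library.

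Clca1 encodes a secreted metalloprotease of the mucus layer. Its level in goblet-like cells was 5452 CPM in WT, 4341 in LApc and 2775 CPM in LApcL. It was 1.56-fold lower in LApcL than in LApc (-0.65, -0.67 to -0.62) and 1.96-fold lower than in WT. The share of goblet-like cells with a Clca1 UMI, after each cell was thinned to 3000 UMIs, was 90.7%, 84.0% and 62.2%, against 27.8%, 11.7% and 8.85% of enterocyte-like cells. Without thinning it was 95.8%, 89.0% and 68.5%, and thinning left out 0, 203 and 5 goblet-like cells that had fewer UMIs.

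Zg16 encodes a small lectin that binds bacterial cell walls. It was the most abundant of the 10 in goblet-like cells, at 75342 CPM in WT, 148176 in LApc and 53743 CPM in LApcL. LApc was 1.97-fold above WT (0.98, 0.97 to 0.98) and LApcL was 2.76-fold below LApc (-1.46, -1.47 to -1.46). In LApc goblet-like cells Zg16 alone took 46.4% of the UMIs of the 10 genes, against 31.9% in WT and 31.4% in LApcL.

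Tff3 encodes the trefoil peptide of the intestine, which goes with repair of the epithelium. Its level was 71260 CPM in WT, 82710 in LApc and 52190 CPM in LApcL. It was 1.58-fold lower in LApcL than in LApc (-0.66, -0.67 to -0.66), and LApc and WT differed by 0.21. Its close relatives were scarce in goblet-like cells: Tff1 had 1, 6 and 8 UMIs in all, and Tff2 stood at 3.75, 3.79 and 4.04 CPM.

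Spink4 encodes a small protein of the Kazal serine protease inhibitor family. Its level was 34434 CPM in WT, 26004 in LApc and 32715 CPM in LApcL, so that LApc was the lowest, by 0.41 on the log2 scale against WT and 0.33 against LApcL. Neither difference reached 1.5-fold. Klk1 encodes a secreted serine protease, tissue kallikrein. It stood at 1331, 845 and 715 CPM, 1.58-fold lower in LApc and 1.86-fold lower in LApcL than in WT. Of the sequence words at the end of Klk1, 173 of 526 (32.9%) also occur in 8 Klk1b genes, but none of these 8 had more than 9 UMIs in the goblet-like cells of a library.

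Agr2 encodes a protein disulphide isomerase of the ER that mucin folding depends on. Its level in goblet-like cells was 22442 CPM in WT, 11443 in LApc and 9316.5 CPM in LApcL. Both libraries with floxed Apc lay below WT, by 1.96-fold in LApc (-0.97, -0.98 to -0.96) and 2.41-fold in LApcL (-1.27, -1.28 to -1.26), and LApcL over LApc gave -0.30. Its relative Agr3 was counted at 23.2, 17.2 and 18.2 CPM.

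Ern2 encodes IRE1 beta, the epithelial form of an ER stress sensor that acts on XBP1 and on mucin transcripts. It was low, at 118 CPM (114 to 123) in WT, 126 CPM (118 to 134) in LApc and 111 CPM (103 to 119) in LApcL, and the counting intervals of the 3 levels overlapped. Creb3l1 encodes a transcription factor held in the ER membrane that is released by cleavage. It stood at 181 CPM (175 to 187), 149 CPM (141 to 158) and 198 CPM (188 to 209), lowest in LApc. Neither gene reached 1.5-fold in any comparison of goblet-like cells.

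**Figure D2:**
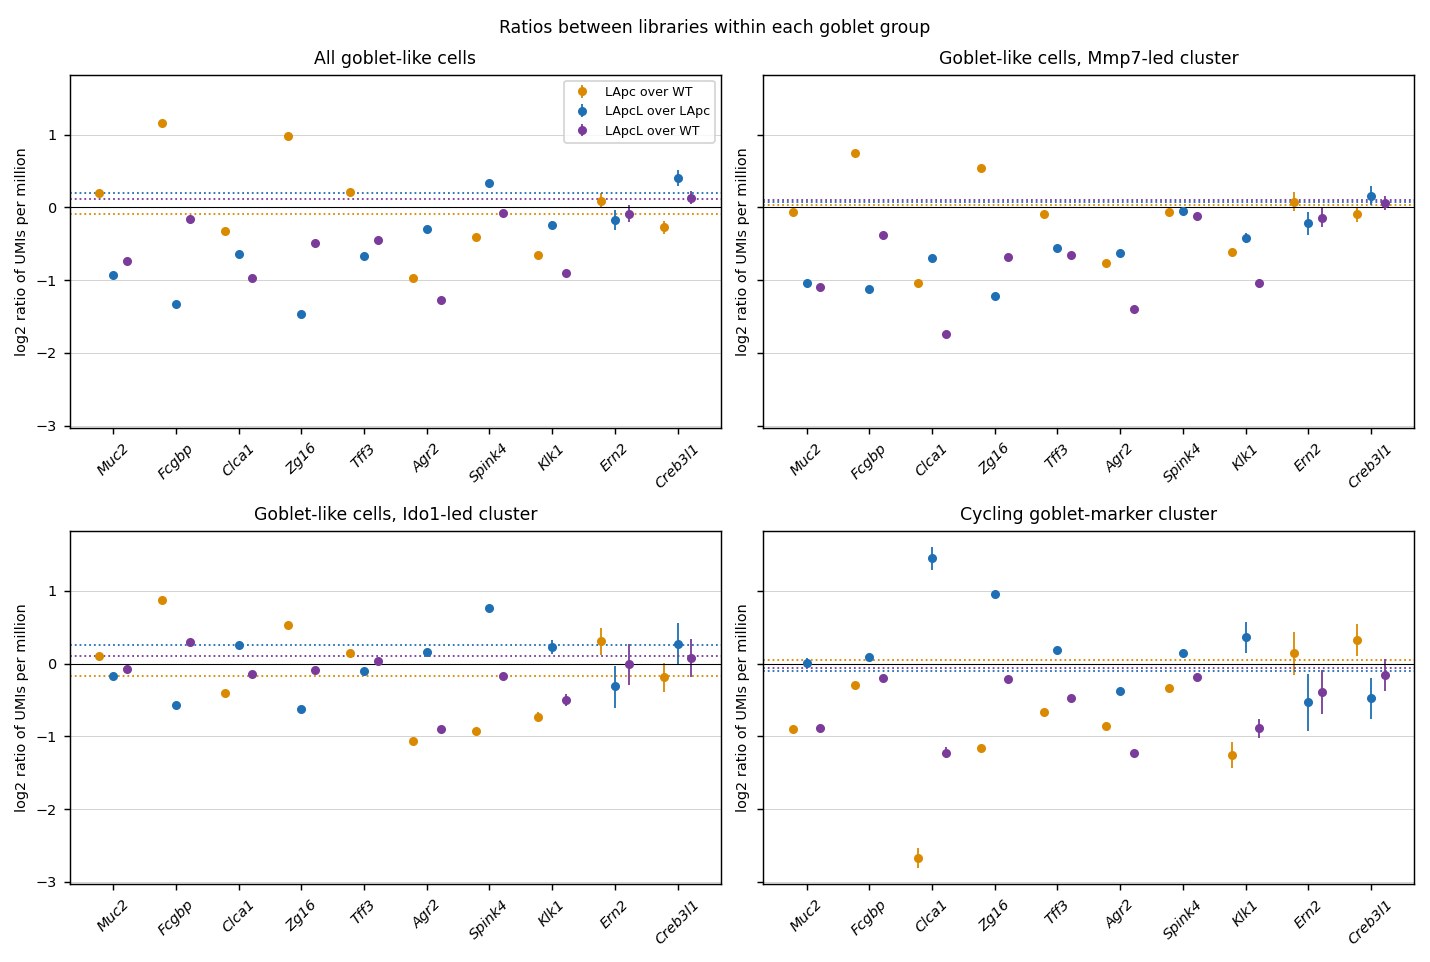
Log2 ratio of the CPM of each gene for LApc over WT, LApcL over LApc and LApcL over WT, in all goblet-like cells, in the Mmp7-led and Ido1-led clusters they form and in cycling goblet-marker cells. Bars are exact 95% counting intervals, mostly smaller than the points, and dotted lines mark the median of all genes tested. In all goblet-like cells Zg16 and Fcgbp stand near 1 for LApc over WT, and in cycling cells Zg16 stands near -1 for the same comparison.

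A gene was called when its levels differed at least 1.5-fold and the counting interval lay on that side of no difference, among genes at 10 CPM or more in either library. In goblet-like cells of LApc against WT, 2 of the 10 were called higher (Fcgbp and Zg16) and 2 lower (Agr2 and Klk1), where 14.3% of 6578 genes were called in either direction, 6.19% higher and 8.15% lower. The median log2 ratio of the 10 was -0.09, as it was over the 6578 genes. Against LApc, LApcL had 0 called higher and 5 lower (Zg16, Fcgbp, Muc2, Tff3 and Clca1), where 26.2% of 6934 genes were called, 19.5% higher and 6.68% lower. Here the median of the 10 was -0.47 and that of all 6934 genes 0.20. Against WT, LApcL had 0 called higher and 4 lower (Agr2, Clca1, Klk1 and Muc2), where 16.2% of 6847 genes were called, 11.6% higher and 4.63% lower. The medians were -0.47 and 0.11. The 3 comparisons share libraries and are not independent of each other.

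The total to which the levels are scaled itself holds the 10 genes. With them left out of the total, the median of all genes for LApcL over LApc moved from 0.20 to -0.10 and that of the 10 from -0.47 to -0.75. With TMM scaling, a scaling that trims genes with extreme ratios, these were -0.02 and -0.68, and without ribosomal protein and mitochondrial genes in the total 0.37 and -0.31. The 5 genes called lower in LApcL against LApc kept a negative ratio under each of these scalings. Clca1 (-0.49) and Tff3 (-0.50) no longer reached 1.5-fold without ribosomal protein and mitochondrial genes in the total. Against WT, the small LApcL ratios of Creb3l1 (0.13), Ern2 (-0.09) and Spink4 (-0.07) had no stable sign: that of Creb3l1 was -0.07 with TMM scaling, and those of Ern2 and Spink4 were 0.04 and 0.05 without ribosomal protein and mitochondrial genes. The 1.58-fold difference of Klk1 between LApc and WT was lost when the 10 genes were left out of the total (-0.49).

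Goblet-like cells were not uniform. At a finer clustering resolution they fell into a larger cluster and a smaller one, called Mmp7-led and Ido1-led here. Apart from the 10 genes and the pathway lists, the genes with the largest ratios between them included Mmp7, Defa17, Rnase1 and Lyz1 on the first side and Ido1, Mxd1, Gsta4 and Gsta1 on the other. It is a division adopted after the data had been seen. The Ido1-led cluster held 26.3% (683), 51.9% (816) and 24.2% (232) of the goblet-like cells of WT, LApc and LApcL. The 10 genes made up 39.0%, 49.1% and 37.8% of the UMIs of Ido1-led cells, against 18.0%, 18.2% and 11.7% in Mmp7-led cells. Defensins and Lyz1, products of Paneth cells, took 2.61%, 1.66% and 3.69% of the UMIs of Mmp7-led cells and 1.44%, 0.670% and 0.723% of those of Ido1-led cells.

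**Figure D3:**
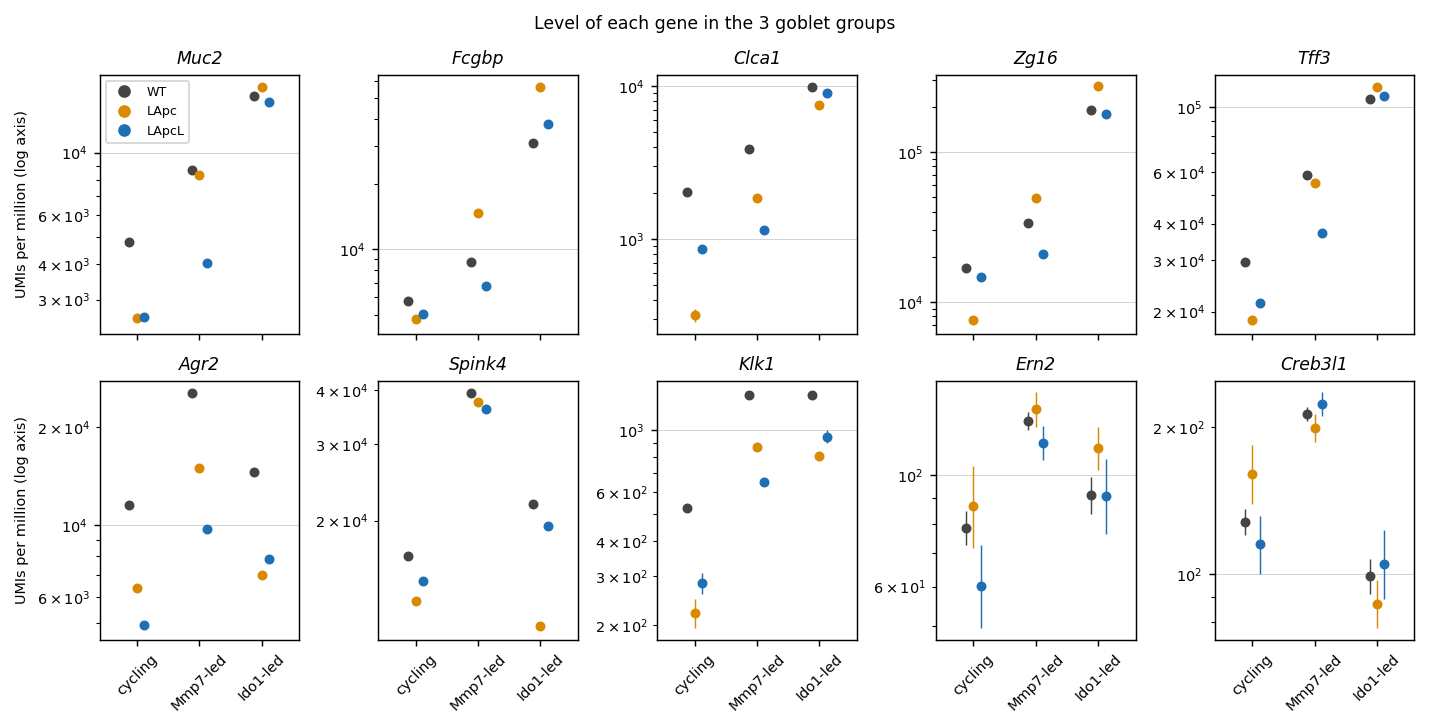
Level of each of the 10 genes (CPM, log axis) in cycling goblet-marker cells, Mmp7-led and Ido1-led goblet-like cells of WT, LApc and LApcL. Zg16, Fcgbp, Clca1, Muc2 and Tff3 are highest in Ido1-led cells in each library, and Spink4, Agr2, Ern2 and Creb3l1 are highest in Mmp7-led cells in each library. Bars are exact 95% counting intervals.

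The cargo genes did not all follow the same side. Zg16 stood at 33519 CPM in Mmp7-led and 189198 CPM in Ido1-led cells of WT, 48901 and 272970 CPM in LApc, and 20953 and 177873 CPM in LApcL. The log2 ratios of Ido1-led over Mmp7-led cells were 2.50, 2.48 and 3.09. Fcgbp (1.82, 1.94 and 2.49), Clca1 (1.36, 2.00 and 2.96), Muc2 (0.87, 1.04 and 1.90) and Tff3 (0.86, 1.10 and 1.56) were higher in Ido1-led cells of each library too. Spink4 was lower there, with log2 ratios of -0.85, -1.72 and -0.90, from 39385, 37588 and 36218 CPM in Mmp7-led to 21800, 11441 and 19454 CPM in Ido1-led cells. Creb3l1 (-1.10, -1.19 and -1.09) and Agr2 (-0.81, -1.10 and -0.31) also had negative ratios. The total in Ido1-led cells holds a larger share of cargo genes. The median ratio of all genes was -0.37, -0.52 and -0.38, and the ratios of Ern2 (-0.49, -0.26 and -0.35) and that of Agr2 in LApcL lay close to it or above it. Klk1 had ratios of -0.00, -0.11 and 0.54, above that median in each library.

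Of the 10 genes, 5 were called higher in Ido1-led cells of each library and 3, 3 and 2 lower in WT, LApc and LApcL. Over all genes 43.4%, 54% and 43.9% were called, 9.28%, 8.76% and 11% higher and 34.1%, 45.2% and 32.9% lower, so most called genes were lower in Ido1-led cells and the 5 cargo genes went the other way. The 10 genes took no part in the clustering, but the clusters were formed on the same cells, and several of the 10 are among the leading genes of the clusters against all other cells: Agr2, Spink4 and Klk1 for the Mmp7-led and Fcgbp, Clca1, Muc2 and Klk1 for the Ido1-led cluster.

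Cycling goblet-marker cells had the lowest levels of the goblet groups for most of the genes. From cycling to Mmp7-led cells all 10 had a positive log2 ratio in each library, and 10, 9 and 7 were called higher, where 35%, 37% and 25.6% of genes were called, 6.28%, 7.48% and 7.71% higher and 28.7%, 29.6% and 17.9% lower. Tff3, for example, stood at 29573, 18685 and 21320 CPM in cycling cells and at 58602, 54917 and 37122 CPM in Mmp7-led cells of WT, LApc and LApcL.

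The comparison of genotypes was then made within each goblet group, with the same rule for a call. In Mmp7-led cells Fcgbp was called higher in LApc than in WT (0.74) and Clca1 (-1.05), Agr2 (-0.77) and Klk1 (-0.62) lower, so 1 and 3 of the 10, where 10.8% of genes were called, 7.21% higher and 3.62% lower. Between LApcL and LApc 5 were called lower (Zg16 at -1.22, Fcgbp at -1.12, Muc2 at -1.04, Clca1 at -0.70 and Agr2 at -0.63) and 0 higher, where 16.4% were called, 9.64% higher and 6.8% lower. Between LApcL and WT 6 were called lower, led by Clca1 (-1.74), Agr2 (-1.40) and Muc2 (-1.10), and 0 higher, where 17.6% were called, 12.2% higher and 5.4% lower.

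In Ido1-led cells fewer of the 10 were called between LApcL and the other libraries, 2 against LApc and 1 against WT. Between LApc and WT, Fcgbp was called higher (0.87) and Agr2 (-1.06), Spink4 (-0.93) and Klk1 (-0.73) lower, where 23.2% of genes were called, 6.55% higher and 16.7% lower. Between LApcL and LApc, Spink4 was called higher (0.77) and Zg16 lower (-0.62), where 21.5% were called, 18% higher and 3.45% lower. The median of the 10 was 0.03, where that of all genes was 0.25. In Mmp7-led cells these medians were -0.60 and 0.07. Between LApcL and WT, Agr2 alone was called (-0.89), where 14.8% were called, 9.65% higher and 5.11% lower. Muc2 stood at 15943, 17096 and 15184 CPM and Tff3 at 106532, 117647 and 109234 CPM in Ido1-led cells of WT, LApc and LApcL. Zg16 was above WT in LApc by 0.54 in Mmp7-led and 0.53 in Ido1-led cells, short of 1.5-fold in each cluster, where all goblet-like cells together gave 0.98.

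In cycling goblet-marker cells 6 genes were called lower in LApc than in WT, led by Clca1 (-2.67), Klk1 (-1.25) and Zg16 (-1.16), and 0 higher, where 13.4% of genes were called, 8.58% higher and 4.84% lower. Between LApcL and LApc, Clca1 (1.45) and Zg16 (0.95) were called higher and 0 genes lower, where 9.8% were called, 2.76% higher and 7.03% lower. Between LApcL and WT 4 were called lower (Agr2, Clca1, Klk1 and Muc2) and 0 higher, where 10.7% were called, 4.32% higher and 6.38% lower. The levels behind these ratios were 2018, 317 and 864 CPM for Clca1 and 16803, 7525 and 14560 CPM for Zg16 in WT, LApc and LApcL.

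Agr2 was below WT in both other libraries in each goblet group. It stood at 11567, 6407 and 4925 CPM in cycling cells, 25555, 14975 and 9703 CPM in Mmp7-led cells and 14602, 7002 and 7853 CPM in Ido1-led cells of WT, LApc and LApcL, at least 1.5-fold below WT in each of these 6 cases. Muc2 and Clca1, by contrast, were below WT in LApcL by 1.10 and 1.74 on the log2 scale in Mmp7-led cells, but by 0.07 and 0.14 in Ido1-led cells.

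Across single goblet-like cells, Zg16 went together with Tff3, Fcgbp and Muc2. Spink4, Agr2 and Creb3l1, which were higher in Mmp7-led cells, had lower rank correlations with each other. Spearman's rho between Zg16 and Tff3, each scaled to the UMIs of all genes but the 10 in the cell, was 0.89 in WT (2595 cells), 0.94 in LApc (1573 cells) and 0.90 in LApcL (958 cells). It was 0.88, 0.93 and 0.89 between Zg16 and Fcgbp, and 0.78, 0.88 and 0.86 between Zg16 and Muc2. Between Zg16 and Spink4 it was 0.05, -0.34 and 0.09, and between Zg16 and Creb3l1 -0.25, -0.26 and -0.13. Between Zg16 and Agr2 it was -0.08, -0.02 and 0.40. Among genes higher in Mmp7-led cells, rho was 0.03, 0.37 and 0.33 between Agr2 and Spink4. It was 0.00, 0.12 and 0.03 between Spink4 and Creb3l1. Creb3l1 ranged from 149 to 198 CPM in goblet-like cells, so the few UMIs per cell limit its rho. The cells of a library share its depth and its free RNA, so these values are a description.

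The same relation differed within the clusters. Between Zg16 and Spink4, rho was 0.41, 0.36 and 0.36 over Mmp7-led cells and -0.37, -0.16 and -0.32 over Ido1-led cells of WT, LApc and LApcL. Between Zg16 and Tff3 it stayed between 0.77 and 0.94 in both clusters of all 3 libraries. Between Agr2 and Spink4 it was -0.20, 0.04 and 0.30 over Mmp7-led cells and 0.33, 0.50 and 0.44 over Ido1-led cells.

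In droplet data, free RNA from one cell type is also counted in the droplets of others, so low levels in the remaining classes were read against enterocyte-like cells, which should lack these genes. Among enterocyte-like cells the median cell held 0.403% of its UMIs in the 10 genes in WT, 0.264% in LApc and 0.115% in LApcL. Corresponding values were 0.395%, 0.248% and 0.111% among crypt cells and 0.282% and 0.106% among adenoma-enriched cells of LApc and LApcL. Within a library these medians were closer to each other than to those of another library, and they were lowest in LApcL in each class, as was the whole library's share. Summed levels (CPM) at or below those of enterocyte-like cells are read as background. Cells with many such UMIs weigh more in these sums than in the medians.

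The adenoma-enriched cells were a cluster of Wnt-active cells to which WT gave 6 cells, LApc 1267 and LApcL 8590. In summed UMIs they held a smaller share of the 10 genes than enterocyte-like cells did. By the median cell, given above, LApc had the other order and LApcL the same with close values, so the gap depends on summing. The genes summed to 3845 CPM in LApc and 1264 CPM in LApcL, where enterocyte-like cells had 4933 and 4024 CPM. The log2 ratio of LApcL over LApc was -1.61. Of 9 genes at 10 CPM or more in either library 9 were called lower. Over all 8351 genes 18.9% were called, 3.29% higher and 15.6% lower. Klk1 (10.7 CPM in LApc and 5.98 in LApcL) and Creb3l1 (12.7 and 5.76 CPM) passed that limit only through LApc. Those genes could thus be called lower only. Cells with at least 5% of their UMIs in the 10 genes numbered 4 of 1267 and 1 of 8590.

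Gene by gene, Agr2 and Ern2 of both libraries and Creb3l1 of LApc lay above the enterocyte-like level in adenoma-enriched cells. Agr2 stood at 401 CPM in LApc and 200 CPM in LApcL, where enterocyte-like cells had 119 and 145 CPM. After thinning, 46.4% and 37.6% of cells had an Agr2 UMI, against 23.9% and 21.7% of enterocyte-like cells. Unthinned, these shares were 67.0% and 71.0% against 39.7% and 42.3%. The median depths were 7501 and 11695.5 UMIs per cell against 6218 and 8169. As a share of the 10 genes' UMIs it was 2.75 and 2.81 times what goblet-like and cycling goblet-marker cells of the same library gave. Ern2 (5.50 and 3.71 times) and Creb3l1 (6.19 and 3.76 times) were also over-represented, at 9.01 and 3.16 CPM and at 12.7 and 5.76 CPM. In enterocyte-like cells Ern2 stood at 2.76 and 2.04 CPM and Creb3l1 at 7.00 and 8.43 CPM, so Creb3l1 of LApcL was below that level. The relatives Tff1 (49.96 and 11.9 CPM) and Agr3 (58.3 and 36.9 CPM) were higher in adenoma-enriched than in goblet-like cells.

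**Figure D4:**
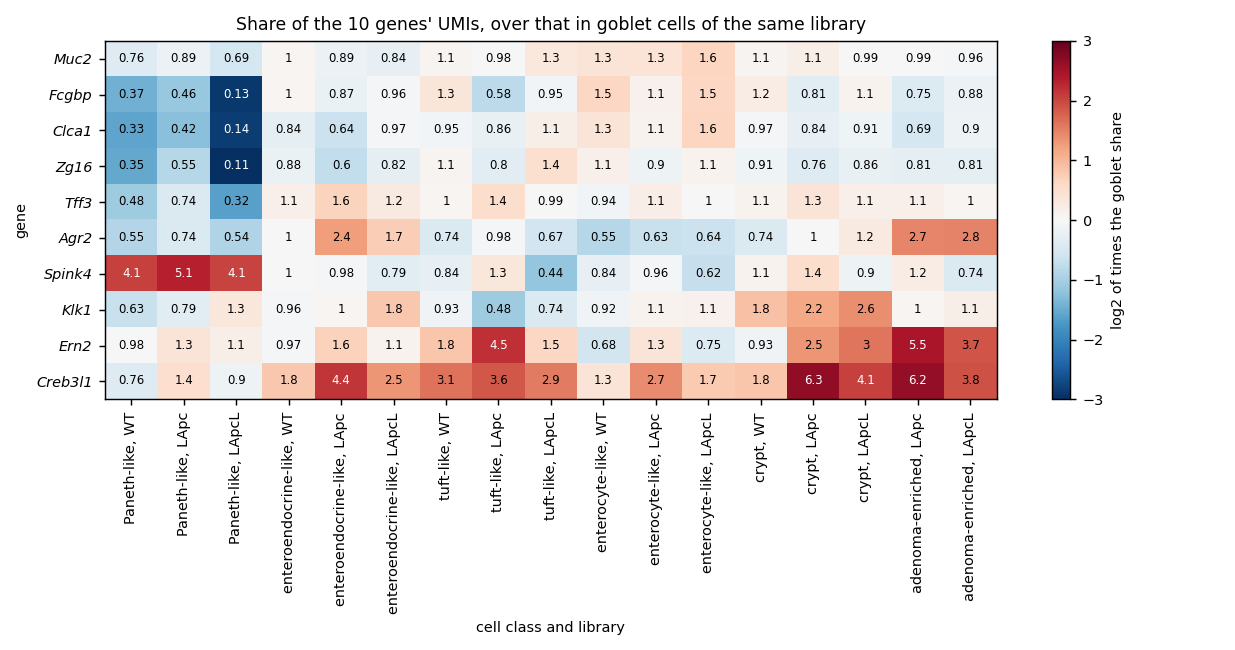
Heat map of the share of each gene (rows) among the UMIs of the 10 genes, divided by its share in goblet-like and cycling goblet-marker cells of the same library, by class and library (columns). Numbers give the ratio and colours its log2. Spink4 stands at 4.07 or more in Paneth-like cells and Agr2, Ern2 and Creb3l1 at 2.75 or more in adenoma-enriched cells.

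In Paneth-like cells taken as a whole Spink4 was counted at 11853, 10459 and 12900 CPM in WT, LApc and LApcL, at 4.13, 5.07 and 4.07 times its share in goblet cells, and 98.3% or more of the thinned cells had a Spink4 UMI, against 86.7%, 58.9% and 49.0% of enterocyte-like cells. Unthinned these shares were 99.5% or more against 99.7%, 81.6% and 80.9%, at median depths of 40288, 4541 and 9312 UMIs against 9787, 6218 and 8169, and thinning left out 0, 108 and 20 Paneth-like cells. At the finer resolution Paneth-like cells fell mostly into 2 clusters, and only the first of these was named Paneth from its markers. The second held 167 of the 313 Paneth-like cells of LApc and 213 of the 379 of LApcL. Its cell numbers are close to those of an unnamed cluster (77, 183 and 227 cells) led by digestive enzyme genes such as Ctrb1, Cela3b and Prss2. The name Paneth-like may thus not hold for these cells, and all values of the pooled class take them in. In the first, Spink4 stood at 11854, 12504 and 17757 CPM (419, 137 and 165 cells) in WT, LApc and LApcL, and in the other at 12210 CPM in WT (58 cells) and at 2733 and 2815 CPM in LApc and LApcL (167 and 213 cells). Zg16 stood at 1555, 2314 and 343 CPM in the first of these clusters and at 18207, 20402 and 996 CPM in the other, and Tff3 at 2373, 2827 and 1819 CPM and at 17193, 11785 and 1219 CPM. Spink4 was thus the highest of these 3 genes in the first cluster of each library, and in the other cluster it was so in LApcL alone. Between LApc and WT 91.2% of genes were called in Paneth-like cells, nearly all in 1 direction, so no ratio between genotypes is read from them.

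In enteroendocrine-like cells Agr2 was counted at 3164, 1591 and 862 CPM, and its share among the 10 genes was 1.01, 2.39 and 1.68 times that in goblet cells. In WT, 32 of the 336 enteroendocrine-like cells had at least 10% of their UMIs in the 10 genes and these cells held 60.5% of the class's UMIs of these genes. Such cells numbered 10 of 513 in LApc and 6 of 356 in LApcL. All 10 genes were called lower in LApcL than in WT, where 21.7% of genes were called, 15.2% higher and 6.54% lower. Ern2 (16.6 CPM in WT and 6.65 in LApcL) passed the limit of 10 CPM only through WT, so it could be called lower only. In crypt cells Klk1 was over-represented at 1.83, 2.25 and 2.62 times and Creb3l1 at 1.79, 6.29 and 4.12 times. Creb3l1 levels there were 8.10, 10.4 and 8.53 CPM, while enterocyte-like cells had 10.0, 7.00 and 8.43 CPM.

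The pathway around the 10 genes was examined with lists of genes for secretory fate, mucin glycosylation, ER folding, vesicle traffic, other mucins and other secreted products. Between LApc and WT goblet-like cells the ER list had the most called genes: of 23 tested 13 were called lower and 1 higher, with a median log2 ratio of -0.74 against -0.09 over all genes, of which 8.15% were lower and 6.19% higher. In the traffic list 4 of 24 were lower and 0 higher, with a median of -0.45. Between LApcL and WT, 13 of 23 ER genes were again lower and 0 higher (-0.69 against 0.11), where 4.63% of all genes were lower. Between LApcL and LApc 2 were lower and 0 higher (0.09 against 0.20), where 6.68% were lower. Fkbp11, an ER isomerase that helps secretory proteins fold, stood at 262, 99.02 and 133 CPM, and Sec61b, a part of the channel through which proteins enter the ER, at 1569, 880 and 1149 CPM in WT, LApc and LApcL. Both were named for a high ratio of LApcL over LApc in their list. Their lower level in LApc than in LApcL follows from that choice. Hyou1, an ER chaperone, was at 33.7, 20.02 and 27.4 CPM, and Lman2, a lectin of ER to Golgi transport, at 153, 113 and 132 CPM.

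The same lists differed between the goblet clusters. In Ido1-led against Mmp7-led cells, ER genes were called lower 14, 17 and 13 times of 23 in WT, LApc and LApcL and higher 0, 2 and 1 times, and traffic genes lower 13, 18 and 12 times of 24, where 34.1%, 45.2% and 32.9% of all genes were lower. Within Mmp7-led cells the ER list summed to 9746, 6807 and 5982 CPM, so both libraries with floxed Apc lay below WT there too, as Agr2 did.

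Secretory fate factors had 0 of 9 genes called in each of the 3 genotype comparisons of goblet-like cells. Atoh1, the factor that commits cells to the secretory lineage, stood at 197, 205 and 148 CPM, and Spdef, which drives goblet maturation, at 164, 128 and 135 CPM. Klf4, a goblet differentiation factor, was at 281, 359 and 246 CPM, and Creb3l4, a relative of Creb3l1, at 128, 97.7 and 116 CPM. Of the glycosylation list 5 of 15 genes were called lower and 0 higher in LApcL against LApc, where 6.68% of all genes were lower and 19.5% higher. Among these, Fut2, a fucosyltransferase, stood at 13.1, 16.5 and 6.93 CPM and Gal3st2, a mucin sulphotransferase, at 14.0, 29.4 and 14.9 CPM. Gne and Tsta3, which make sugar precursors, were at 51.6, 36.4 and 51.5 CPM and at 360, 273 and 322 CPM.

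Sytl2 and Rab27a, which act in granule release, were named for the lowest ratios of LApcL over LApc in the traffic list. Their direction follows from that choice. In the whole list 2 of 24 genes were called lower and 0 higher, where 6.68% of all genes were lower and 19.5% higher. Its median was 0.12 against 0.20 over all genes. Sytl2 and Rab27a were lower in LApcL than in LApc by 0.88 and 0.61 on the log2 scale, at 111, 158 and 85.9 CPM and at 52.0, 70.1 and 45.9 CPM. Both were higher in Ido1-led than in Mmp7-led cells of each library. Of the ER list, Qsox1, a disulphide-forming oxidase, was at 310, 334 and 182 CPM and Ddit3, a factor induced by ER stress, at 22.7, 18.3 and 9.38 CPM. Ddit3 was below 10 CPM in LApcL, so against LApc it too could be called lower only. Of 3 other mucins above 10 CPM, the membrane mucin Muc3 was called lower in LApcL than in LApc (70.1, 110 and 45.6 CPM), and Muc13 (827, 963 and 726 CPM) and Muc4 (11.53, 12.9 and 10.8 CPM) were not.

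Among other secreted products 6 of 14 were called higher and 4 lower in LApcL against LApc, where 19.5% of all genes were higher and 6.68% lower. Itln1, an intestinal lectin shared with Paneth cells, stood at 1717, 724 and 1867 CPM and Mptx1, a pentraxin, at 109, 14.4 and 57.9 CPM. Reg3b and Reg3g, antibacterial lectins, were at 1483, 3297 and 1047 CPM and at 1946, 2565 and 1030 CPM. Reg3b and Reg3g were higher in enterocyte-like cells (15514, 29086 and 13189 CPM, and 7555, 10044 and 8510 CPM), as were Muc3 (625, 988 and 439 CPM) and Gal3st2 (23.3, 60.9 and 38.5 CPM) in each library and Ddit3 in LApcL, and the part of free RNA in their goblet-like levels was not tested.

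Of 2646 genes at 100 CPM or more in some class, those whose pattern over 23 class and library points was most like the mean of the 10 were Rep15 (Pearson's r of 0.99), Tpsg1 (0.99), Sytl2 (0.98), Atoh1 (0.98), Bcas1 (0.97), Capn9 (0.96), Spdef (0.96), Ccl9 (0.96), Slc12a8 (0.95) and C1galt1c1 (0.95). Rep15, Tpsg1, Bcas1, Capn9, Spdef and Slc12a8 were among the 10 markers that named the goblet-like class, so their likeness is built in. The 10 genes themselves had r between 0.90 (Spink4) and 0.99 (Tff3) with that mean, which includes each of them. The points share libraries and classes.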

How the data were processed

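Single-cell RNA-seq counts were analysed from 3 libraries of EpCAM+ cells of the mouse small intestine, 1 each of WT, LApc and LApcL, grouped by the labels. The deposited values are UMI counts per gene and barcode that the authors made with Cell Ranger 2.1.1 on mm10 from 10x Genomics 3′ libraries, with no normalization. Whether chemistry v2 or v3 was used for a given library is not given in the sources used here.

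Barcodes were filtered after the study's methods: the 1% with the lowest and the 1% with the highest number of genes detected in each library and those with over 20% mitochondrial UMIs were left out. The study called doublets with scDblFinder. Here Scrublet scores (scanpy 1.11.5) were used, and since their automatic threshold marked 2875, 3 and 2091 barcodes, the highest scores at an expected rate of 0.8% per 1000 barcodes were removed instead (1023, 1135 and 2326). Cells were integrated and clustered in Seurat 5.3.0 (canonical correlation, 20 components, 20 neighbours, resolution 0.2), after 111 genes (the 10 genes and the pathway lists) had been taken out of clustering. A cluster took the name of a class when at least 3 of that class's markers were raised 1.5-fold at 10 CPM or more and its 10 leading genes did not go against it. Wnt-active clusters to which WT gave under 10% of cells, after weighting the libraries alike, were called adenoma-enriched.

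UMIs were summed over the cells of a class and library and given as CPM. Intervals are exact 95% Poisson, Clopper-Pearson or conditional binomial intervals. With 1 mouse and 1 library per genotype no p-value was computed. The caller recovered at least 94% of 50 genes changed by each simulated fold and called at most 0.373% of unchanged genes, on simulated counts of goblet-like cells. Those counts held counting error only, with no spread between mice, libraries or cells. The 0.373% is therefore not a rate of false calls between genotypes. The text names all 10 genes, in each pathway list the 2 genes with the highest and the 2 with the lowest ratio of LApcL over LApc at 10 CPM or more, the 10 genes most alike in pattern, on log2(CPM + 10), and close relatives of the 10. The 10 genes, the lists and the markers were chosen with earlier results of these data known. Alternatives were clustering at resolution 0.4, classes from marker scores, a mitochondrial limit of 10%, a higher doublet rate, other totals, TMM scaling (edgeR 4.0.16), means over cells, no CPM filter and thinning to 3000 UMIs. Restriction to each goblet cluster and subtraction of the enterocyte-like level in goblet-like cells were added after the data had been seen.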

Additional observations from a re-analysis of the deposited data

Results flagged for a closer look

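In 6 instances a gene's ratio between genotypes had one sign in goblet-like cells and the other in a further class, with both past 1.5-fold and the counting interval on that side. With 1 library per genotype the difference between classes was not tested in any of them. Zg16 was higher in LApc than in WT in goblet-like cells (log2 ratio 0.98) but lower in cycling goblet-marker cells (-1.16) and in enteroendocrine-like cells (-0.82), where 11.9% of genes were lower. Against LApc, LApcL had less Zg16 in goblet-like cells (-1.46) but more in cycling goblet-marker cells (0.95), and likewise for Clca1 (-0.65 and 1.45). Fcgbp was higher in LApc than in WT in goblet-like cells (1.16) but lower in crypt cells (-0.60, where 2.63% of genes were lower) and enterocyte-like cells (-0.64, 4.91%), where its levels are read as background.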

How the results depend on the processing

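The median log2 ratio of the 10 genes in goblet-like cells of LApc over WT was -0.09, and 0.073 with the 10 genes left out of the total and 0.022 as a mean over cells. For LApcL over LApc it was -0.47, and -0.52 at resolution 0.4, -0.40 with classes from marker scores, -0.31 without ribosomal protein and mitochondrial genes in the total, -0.75 without the 10 genes, -0.68 with TMM scaling, -0.60 in Mmp7-led and 0.029 in Ido1-led cells. For LApcL over WT it was -0.47, and in that order -0.39, -0.28, -0.34, -0.59, -0.67, -0.67 and -0.080, with -0.49 at the mitochondrial limit of 10%, -0.40 at the higher doublet rate, -0.32 as a mean over cells and -0.45 less the enterocyte-like level. The 5 genes called between LApcL and LApc became 3 with marker scores, 3 without ribosomal protein and mitochondrial genes and 2 in Ido1-led cells. Those 2 were Zg16, lower as before, and Spink4, which was higher and not among the 5. In Ido1-led cells 21.5% of all genes were called in that comparison. The 4 called between LApcL and WT became 1 in Ido1-led cells, where 14.8% of all genes were called. Of the pathway lists, 27 genes were called between LApcL and WT, 41 without the 10 genes in the total and 48 with TMM scaling.

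Of 24 called values, those of the 10 genes in the 3 genotype comparisons and of the named pathway genes for LApcL over LApc, 13 were not called in Ido1-led cells, 3 each in Mmp7-led cells, with marker scores and without ribosomal protein and mitochondrial genes, and 1 each at resolution 0.4, without the 10 genes and at the higher doublet rate. None of the 24 was lost with TMM scaling, as a mean over cells, at the lower mitochondrial limit or without the CPM filter. In Ido1-led cells the ratios of LApcL over LApc for Clca1 (0.26), Fut2 (1.74) and Rab27a (0.067) were positive, where those of all goblet-like cells were negative, but Fut2 stood at only 0.827 CPM in LApc and 2.76 CPM in LApcL there, under the 10 CPM needed for a call. The cause was not tested.

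The goblet-like share of 25.6% in WT was 31.2% at resolution 0.4, 27.9% with marker scores, 26.6% at the lower mitochondrial limit and 26.8% at the higher doublet rate. That of LApc (16.4%) was 17.9%, 18.3% and 17.4% at resolution 0.4, the lower limit and the higher rate, and that of LApcL (6.66%) was 7.73% at resolution 0.4 and 7.43% at the higher rate. At resolution 0.4 a cluster with goblet and cell-cycle markers (598, 147 and 152 cells of WT, LApc and LApcL) also took the goblet name. All values at that resolution include it. The share of UMIs of the 10 genes in goblet-like cells was 19.7%, 28.2% and 14.9% in WT, LApc and LApcL at resolution 0.4, 20.9%, 29.0% and 16.5% with marker scores, 23.7%, 32.2% and 17.0% at the lower limit, 24.1%, 33.7% and 18.2% at the higher rate, 29.8%, 39.3% and 23.6% without ribosomal protein and mitochondrial genes and 23.6%, 35.2% and 18.3% as a mean over cells, highest in LApc each time. The summed ratio of -1.61 in adenoma-enriched cells was -1.64 with marker scores, -1.49 at the higher rate, -1.50 without ribosomal protein and mitochondrial genes, -1.37 with TMM scaling and -1.52 as a mean over cells. Less the enterocyte-like level it had no value, since both differences were negative. After thinning, 29 of 30 pairs of gene and library were still highest in goblet-like cells.

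No paired analysis was possible because each genotype has 1 library. The spread between mice was not measured, and low counts widen the intervals of Ern2 and Creb3l1 outside goblet cells.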
